A study of Arabidopsis thaliana with 6 samples.

Results

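The plastid genome of Arabidopsis thaliana holds, beside the genes of the photosynthetic machinery, genes whose products make that genome work or serve other tasks in the organelle. The 26 genes described here are those genes, without the photosynthetic ones, that could be measured. They were taken as the plastid genes of the platform annotation that encode no photosystem, cytochrome complex, NDH or ATP synthase subunit and are not rbcL, where a probe set was listed with that gene alone. They are 26 of the 69 plastid genes measured in this way, the other 43 being the photosynthesis genes, and of 13356 genes in all. By role they are 4 subunits of the plastid RNA polymerase, 1 splicing factor, 7 proteins of the large and 8 of the small ribosomal subunit, and 6 genes of other roles. The choice used gene names and no expression values.

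The tested samples were dry seeds of hda9-1, a T-DNA line (SALK_001723) carrying an insertion in HISTONE DEACETYLASE 9, whose product removes acetyl groups from histones, and the controls were dry seeds of the wild-type accession Col. The tissue given for each sample is dry seeds, but the series' design text has the RNA come from dry siliques, so whether silique wall was included is not settled. Siliques were harvested ripe, 18 to 19 days after pollination, from soil-grown plants under a day of 16 h at 22 °C and a night of 8 h at 16 °C. Each genotype had 3 biological replicates, each pooled over several plants, and the mutant was represented by a single allele. Total RNA was hybridised to Affymetrix ATH1 arrays, 1 per sample, and the deposited values are log2 expression per probe set.

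A plant cell reads its plastid genome with a bacterial-type RNA polymerase, whose core is encoded in the plastid (rpoA, rpoB, rpoC1, rpoC2) and guided by sigma factors from the nucleus, and with phage-type polymerases encoded in the nucleus. The messages are spliced, edited and cut from long polycistronic precursors, and are translated on bacterial-type ribosomes whose proteins come partly from the plastid and partly from the nucleus. As an oilseed embryo matures and dries, its green plastids lose most of their inner membranes, and plastid gene expression resumes at germination. Plastid messages carry no stable poly(A) tail, while the labelling named in the labels starts from poly(A). The part of this in the values was not tested.

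No gene of the 26 passed the test between hda9-1 and Col seeds when the replicate number was left out of the fit, and 1, rpl32, did when it was a block. Without the block, by the adjusted p of limma, 0 were higher and 0 lower under the threshold of 0.05, against 1.37% and 2.45% of all 22746 probe sets. An unadjusted p under 0.05 was found for 1 of the 26, rpl32, a gene of the large ribosomal subunit, and for 19.2% of all probe sets. With the block, rpl32 was called higher (adjusted p = 0.0479 in limma), as 2.75% of all probe sets were. The log2 changes, hda9-1 minus Col, were positive for 23 genes and negative for 3, with a median of 0.17, against −0.00 over all probe sets, of which 48.8% were positive. They ran from −0.11 for rpoC2 to 0.67 for rpl32. With array weights, estimated from the scatter of these same values, all 26 were positive and the median was 0.26. Without Col replicate 2, by contrast, 11 were positive and 15 negative, with a median of −0.03. For 25 of the 26 genes the 95% interval of the change included 0, and for 24 the change was smaller than the larger of the SDs of the hda9-1 and Col replicates. The same held for 18377 and 14219 of the 22746 probe sets. In these bulk samples, a different number of plastids or cells and a different amount of RNA per plastid cannot be told apart.

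For most of these genes the replicates of Col spread more widely than the genotypes differed. In 17 of the 26 genes all 3 hda9-1 values lay inside the range of the 3 Col values, and the converse held in 0. Over all 22746 probe sets these counts were 3937 and 2813. The mean log2 value over the 26 genes was 8.06, 8.69 and 8.52 in hda9-1 replicates 1 to 3, against 8.10, 7.75 and 8.81 in Col replicates 1 to 3. The lowest and the highest of the 6 arrays were thus both Col arrays, and the hda9-1 arrays lay between them. The genes moved together from array to array. Col replicate 3 was the highest Col array for 25 genes and the highest of all 6 arrays for 18, against 8846 and 5279 of the 22746 probe sets. Col replicate 2 was the lowest Col array for 22 genes and the lowest of all 6 for 21, against 8693 and 3956 probe sets. Among the mutant arrays, hda9-1 replicate 1 was the lowest for 22 genes and hda9-1 replicate 2 the highest for 21. Over all probe sets this held for 7682 and 5805. The median SD over the 26 genes was 0.36 in hda9-1 and 0.58 in Col, while over all probe sets it was 0.12 in hda9-1 and 0.14 in Col.

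The 43 plastid photosynthesis genes had means of 8.62, 9.04 and 8.87 in the hda9-1 arrays and of 8.49, 8.24 and 8.86 in the Col arrays. Here too Col replicate 2 was lowest, but the highest array was hda9-1 replicate 2. By gene, Col replicate 3 was the highest Col array for 35 of the 43 and the highest of all 6 for 9. Col replicate 2 was the lowest Col array for 31 of them and the lowest of all 6 for 30. Measures from control probe sets were highest in Col replicate 3, as the mean of the 26 genes was. The excess of the 3′ over the 5′ probe set of actin was 1.17, 1.20 and 1.28 log2 units in hda9-1 replicates 1 to 3. In Col replicates 1 to 3 it was 0.96, 1.03 and 1.58. For ubiquitin the excess was 0.67, 0.64 and 0.69 in hda9-1 and 0.62, 0.61 and 0.87 in Col. For GAPDH it was 0.54, 0.43 and 0.30 in hda9-1, against 0.36, 0.33 and 0.61 in Col. The control probe set for 5S ribosomal RNA read 7.81, 8.53 and 7.96 in hda9-1 replicates 1 to 3 and 8.10, 7.44 and 8.75 in Col replicates 1 to 3. It was thus highest in Col replicate 3 and lowest in Col replicate 2, as were the means of the 26 genes. The control for 25S ribosomal RNA read 11.05, 11.35 and 11.12 in hda9-1 replicates 1 to 3, against 11.33, 11.43 and 12.16 in Col replicates 1 to 3. It too was highest in Col replicate 3, but it was lowest in hda9-1 replicate 1, and Col replicate 2 was the second highest. The actin excess, highest in Col replicate 3 as well, was lowest in Col replicate 1. The part of RNA quality in the values of the 26 genes was not tested.

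**Figure D1:**
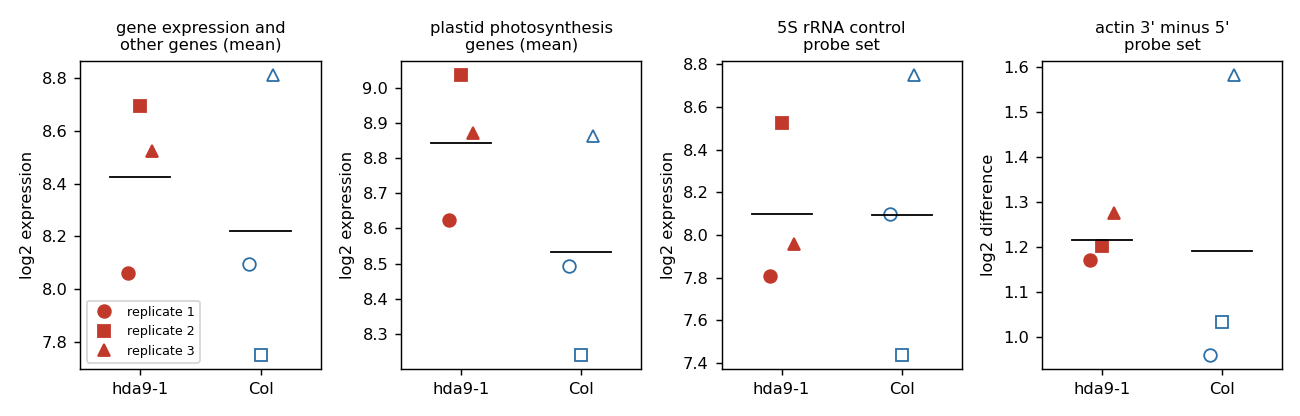
Mean log2 value of the 26 genes, mean of the 43 plastid photosynthesis genes, log2 value of the 5S rRNA control and actin 3′ minus 5′ difference in each array; red filled symbols are hda9-1, blue open symbols Col, the symbol shape gives the replicate number and lines the group means. For the 26 genes the Col arrays reach from 7.75 to 8.81 and enclose the hda9-1 arrays, from 8.06 to 8.69; each panel has its own axis, which does not start at 0.

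rpl32 stood out among the ribosomal genes. Its log2 values were 9.98, 10.31 and 9.57 in hda9-1 replicates 1 to 3, against 9.14, 9.43 and 9.28 in Col replicates 1 to 3. All 3 hda9-1 values lay above all 3 Col values, and no other of the 26 genes showed this, while 11.6% of all probe sets did. Of the 43 plastid photosynthesis genes 8 showed it too, among them psbK (log2 change 0.65) and psbI (0.75), and 0 showed the reverse. The log2 change was 0.67 (SE 0.18, 95% interval 0.24 to 1.10), a 1.59-fold difference, with a limma adjusted p of 0.0963. With the replicate number as a block the adjusted p was 0.0479. Replicate 3 of Col, the highest Col array for each of the other 25 genes, was the middle one for rpl32. With a single array left out the change ran from 0.49 to 0.86, and none of these 6 fits called it (adjusted p from 0.0539 to 0.265).

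The other 6 genes of the large subunit had log2 changes of −0.02 for rpl20, 0.10 for both rpl14 and rpl36, 0.11 for rpl22, 0.17 for rpl33 and 0.28 for rpl16. In rpl16 the values were 7.36, 8.29 and 8.02 in hda9-1 and 7.56, 7.22 and 8.04 in Col (SE of the change 0.28, adjusted p = 0.670 in limma). The Col arrays held the lowest value and the hda9-1 arrays the highest, with the others mixed. For rpl20, hda9-1 arrays read 7.77, 8.61 and 8.42, and Col arrays read 8.25, 7.55 and 9.05. Both the lowest and the highest value were from Col, and the means were 8.26 ± 0.44 in hda9-1 and 8.28 ± 0.75 in Col (SD, n = 3 each). The interval of the rpl20 change, −0.89 to 0.85, leaves room for a difference in either direction.

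Of the 8 small-subunit genes, 7 had a positive and 1 a negative change, with a median of 0.20. rps18 had the largest, 0.43 (SE 0.19, 95% interval −0.01 to 0.88, adjusted p = 0.270). Its values were 7.44, 7.74 and 7.38 in hda9-1 replicates 1 to 3, against 6.71, 7.10 and 7.44 in Col replicates 1 to 3. Col replicate 3 alone reached into the range of the mutant arrays. rps14, which lies next to the photosystem I genes psaB and psaA, read 7.21, 7.97 and 7.78 in hda9-1 and 7.43, 6.59 and 7.98 in Col, a change of 0.32 (SE 0.35). rps4 read 9.09, 9.76 and 9.51 in hda9-1, against 9.27, 8.88 and 10.27 in Col, and its means differed by −0.02 (SE 0.34). In both genes the hda9-1 values fell inside the range of the Col values.

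rps15 gave 7.07, 7.81 and 7.71 in hda9-1 and 7.30, 6.71 and 8.44 in Col. Its Col SD was 0.88 and its hda9-1 SD 0.40, and its change was 0.04 (SE 0.41). The remaining small-subunit genes had changes of 0.10 for rps19, 0.12 for rps3, 0.28 for rps16 and 0.29 for rps2. Of these, rps19, rps3 and rps2 had all their hda9-1 values inside the Col range, while the highest rps16 value, 7.12, was from hda9-1 replicate 2. Together the ribosomal proteins of both subunits gave 13 positive and 2 negative changes, and none passed without the replicate block.

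The RNA polymerase genes had both the most negative change of the 26 genes and the second largest positive one. rpoB, which encodes the beta subunit, read 5.97, 7.12 and 7.25 in hda9-1 replicates 1 to 3, against 6.43, 5.65 and 6.94 in Col replicates 1 to 3. Its change was 0.44 (SE 0.41, 95% interval −0.51 to 1.39, adjusted p = 0.655). The mutant arrays disagreed among themselves, with an SD of 0.70, the largest hda9-1 SD of the 26 genes. rpoC1, the beta′ subunit gene, read 6.79, 7.36 and 7.31 in hda9-1 and 6.55, 6.41 and 8.06 in Col. Its Col SD of 0.92 was the largest of the 26 genes, and its change was 0.15 (SE 0.41). rpoC2, which encodes the beta″ subunit, read 6.20, 6.93 and 6.44 in hda9-1, against 6.42, 6.21 and 7.27 in Col. The change of rpoC2 was −0.11 (SE 0.29, adjusted p = 0.901). rpoA, the gene of the alpha subunit, lies apart from the other 3 and had a change of 0.13 (SE 0.24).

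**Figure D2:**
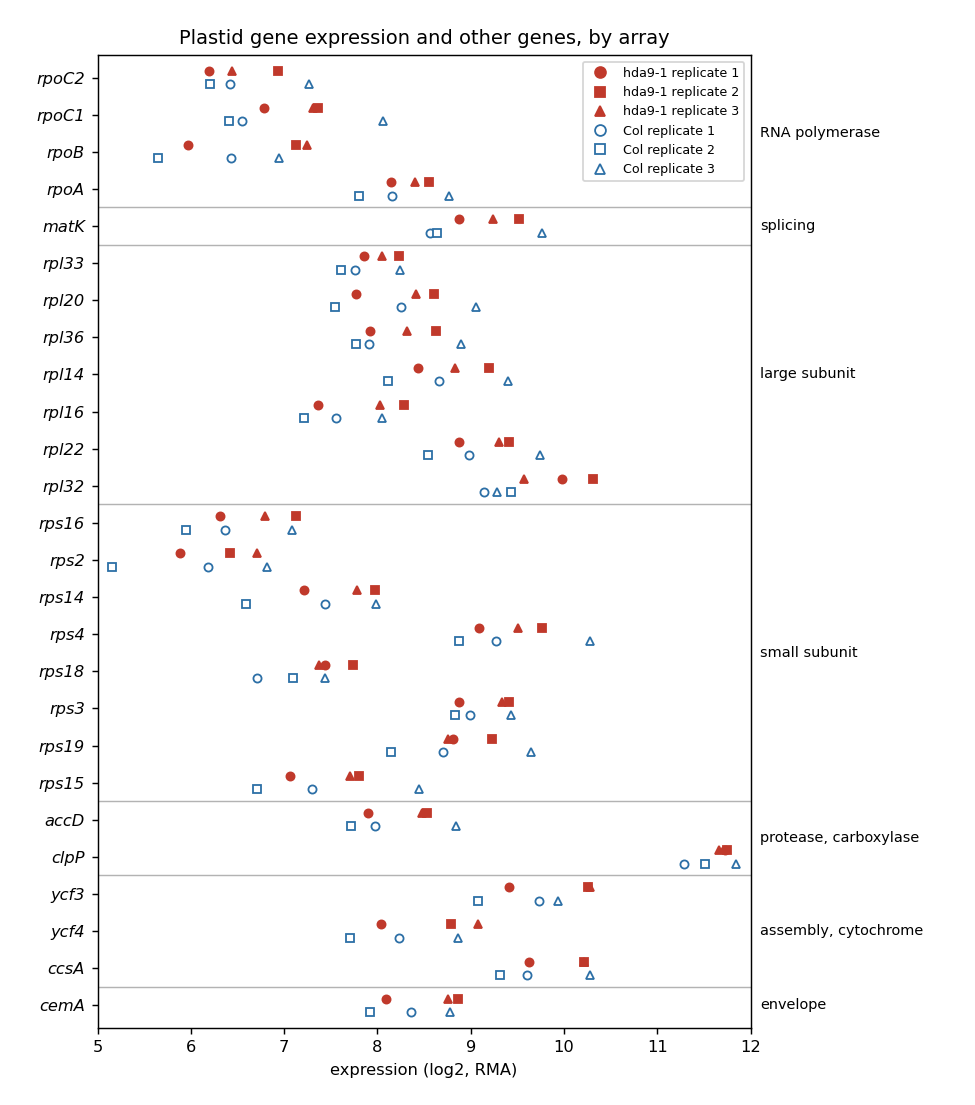
Log2 value of each of the 26 genes in each array, grouped by role; red filled symbols are hda9-1, drawn above blue open symbols for Col, and the symbol shape gives the replicate number. Col replicate 3 (open triangles) stands to the right and Col replicate 2 (open squares) to the left in most rows, and only in rpl32 do all red symbols lie to the right of all blue ones.

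The other 7 genes serve splicing, protein turnover, lipid synthesis and assembly. matK, the maturase that helps to splice plastid introns, read 8.87, 9.52 and 9.24 in hda9-1 and 8.56, 8.63 and 9.76 in Col. Its change was 0.23 (SE 0.32), and Col replicate 3 exceeded every mutant array. clpP encodes the plastid-made proteolytic subunit of the Clp protease. It read 11.73, 11.75 and 11.66 in hda9-1, against 11.28, 11.51 and 11.84 in Col. The mutant arrays were close together, with the smallest hda9-1 SD of the 26 genes (0.05), and lay within the Col range. The clpP change was 0.17 (SE 0.14, 95% interval −0.16 to 0.50), so its interval was also the narrowest. accD encodes a subunit of the plastid acetyl-CoA carboxylase, which starts fatty acid synthesis. It read 7.90, 8.53 and 8.48 in hda9-1 and 7.98, 7.72 and 8.84 in Col, with a change of 0.12 (SE 0.30).

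ycf3 and ycf4 encode factors that assemble photosystem I. ycf3 read 9.41, 10.26 and 10.28 in hda9-1 replicates 1 to 3, against 9.73, 9.08 and 9.93 in Col replicates 1 to 3. Replicates 2 and 3 of the mutant lay above every Col array and replicate 1 lay inside the Col range, and the change was 0.41 (SE 0.29, adjusted p = 0.536). ycf4 read 8.04, 8.78 and 9.08 in hda9-1 and 8.23, 7.71 and 8.86 in Col, a change of 0.37 (SE 0.34, adjusted p = 0.650). ccsA, needed to attach haem to c-type cytochromes of the plastid, had a change of 0.29 (SE 0.26). cemA, which encodes a protein of the plastid envelope, read 8.09, 8.86 and 8.75 in hda9-1 and 8.36, 7.92 and 8.78 in Col, with a change of 0.21 (SE 0.26). For ccsA, as for rpoA, the hda9-1 values lay inside the Col range, and none of these 7 genes passed the test.

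Gene order was compared with the changes, since neighbouring plastid genes are often transcribed together. The longest row of neighbouring protein-coding genes of these kinds held 7 measured ones, from rpoA through rpl36, rpl14, rpl16, rps3 and rpl22 to rps19. Their changes were all between 0.10 and 0.28, with a median of 0.11. In the row rps2, rpoC2, rpoC1 and rpoB the changes ran from −0.11 to 0.44, with SEs of 0.29 to 0.41. The row rpl33, rps18, rpl20 and clpP ran from −0.02 to 0.43. rpl32 and its neighbour ccsA differed in size, at 0.67 and 0.29. These differences between neighbours were not tested.

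**Figure D3:**
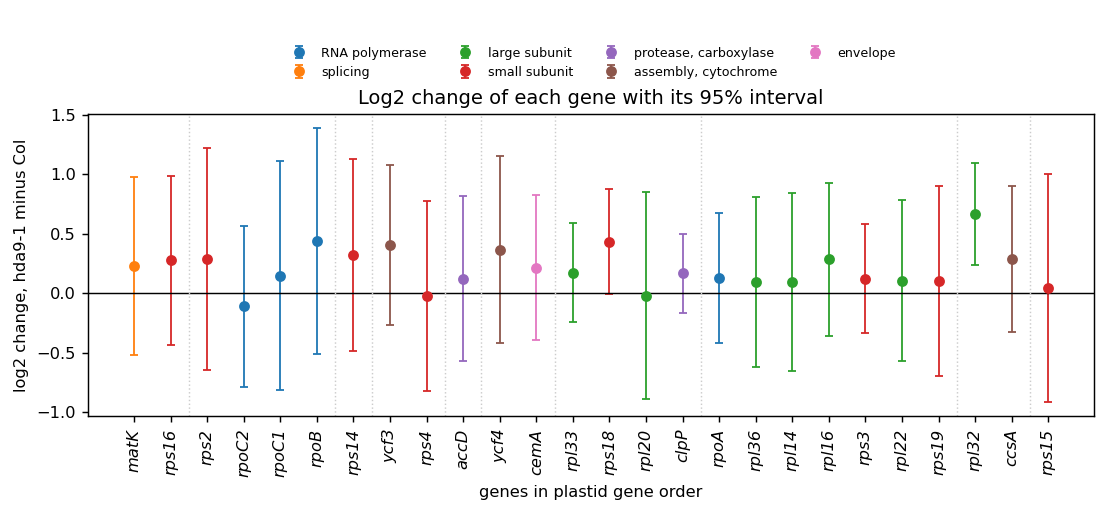
Log2 change, hda9-1 minus Col, of each of the 26 genes (points, coloured by role) with its 95% interval from limma (bars), in the order of the plastid genome; dotted lines part rows of neighbouring genes. All intervals but that of rpl32 (0.24 to 1.10) cross 0, and the genes from rpoA to rps19 lie between 0.10 and 0.28.

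Another 6 genes of the same kinds, mostly carried in both copies of the plastid inverted repeat, had only probe sets listed with more than one gene entry and were not counted among the 26. Their log2 changes were 0.35 for rpl2, 0.08 for ycf1, −0.02 for rps12 and ycf2, −0.14 for rpl23 and −0.13 for rps7. None passed (lowest adjusted p = 0.312 in limma). rpl2 read 9.96, 10.36 and 10.38 in hda9-1, against 9.78, 9.68 and 10.18 in Col. A dimmer probe set of rps12, a gene whose message is joined from separate transcripts, had a change of 0.31 (SE 0.29), so its probe sets differed in sign. With these 6 genes added, 25 of 32 changes were positive and the median was 0.14.

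Set against the plastid photosynthesis genes, the 26 genes had the smaller changes. The median log2 change was 0.17 in the 26 genes and 0.35 in the 43 photosynthesis genes, of which 41 were positive and 1 passed. When the mean of the photosynthesis genes was subtracted within each array, the mean of the 26 genes stood at −0.56, −0.34 and −0.35 in hda9-1 replicates 1 to 3, against −0.40, −0.49 and −0.05 in Col replicates 1 to 3. The genotypes overlapped on this scale, and the difference of the means was −0.11, smaller than the Col SD of 0.23. On this scale 6 of the 26 genes were positive and 20 negative, and the median was −0.14, while the median over all probe sets moved to −0.32. In 4 genes, rpoC2, rpl33, rpoA and rps3, all 3 hda9-1 values then lay below all 3 Col values, as in 17.6% of all probe sets on this scale, and in 0 they lay above. The differences were −0.42 for rpoC2, −0.14 for rpl33 and −0.19 for both rpoA and rps3. rpl32 stayed positive there, at 0.36, with overlapping groups. Centring took the same amount, 0.31, from the change of every probe set, so positive changes below it turned negative by construction. For that reason the sign of most of the 26 changes differs between the scale of all transcripts and that of the photosynthesis transcripts. Without the block no gene of the 26 passed on either scale. On the second, 0 of the 26 had an unadjusted p under 0.05, against 3437 of the 22746 probe sets. By adjusted p, 969 of all probe sets were called on that scale.

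The direction of the changes also turned on single Col arrays. Without Col replicate 3 all 26 genes were positive, with a median of 0.51. That array was the highest Col array for 25 of the 26, so leaving it out raises their changes by construction. By adjusted p, 0 of the 26 were called in the fit without it, against 2.51% of all probe sets. Without Col replicate 2 the count was 11 positive and 15 negative, with a median of −0.03. Leaving out hda9-1 replicate 1 gave 26 positive and a median of 0.33. The median was 0.07 without hda9-1 replicate 2 and 0.08 without Col replicate 1. No gene of the 26 passed in any of the 6 fits, and 11 genes, rpl32, rpoB, rps18 and ycf3 among them, were positive in all 6.

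**Figure D4:**
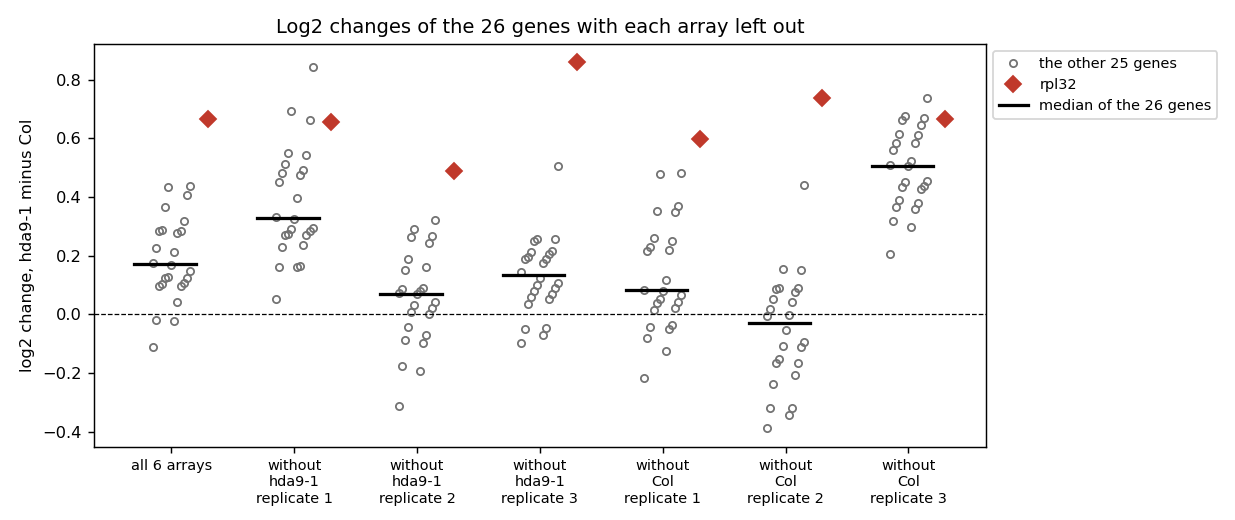
Log2 change, hda9-1 minus Col, of the 26 genes with all 6 arrays and with each array left out; grey circles are 25 genes, red diamonds rpl32 and black lines the median of the 26. The median reaches from −0.03 without Col replicate 2 to 0.51 without Col replicate 3, while rpl32 stays between 0.49 and 0.86.

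Nuclear genes that serve plastid gene expression were read from lists of textbook members. Of 40 listed nuclear genes for plastid ribosomal proteins, 10 were measured, and 1 fell and 0 rose, against 2.45% and 1.37% of all probe sets. An unadjusted p under 0.05 was found for 5 of the 10, 4 positive and 1 negative, against 19.2% of all probe sets. The gene that fell, AT2G43030, read 7.74, 7.76 and 7.83 in hda9-1, against 8.24, 8.17 and 8.34 in Col. Every mutant value lay below every Col value, and the log2 change was −0.47 (SE 0.09, limma adjusted p = 0.0347). With 1 array left out it was called only without Col replicate 2 (adjusted p from 0.0460 to 0.120 over the 6 fits), and with trend and robust eBayes it was not called (0.0510). AT5G24490 (−0.57), AT4G17560 (0.50) and AT1G29070 (0.32) did not pass, although the first 2 changes were larger in size than that of AT2G43030 (adjusted p = 0.498, 0.144 and 0.210 in limma). The list had 6 positive and 4 negative changes and a median of 0.16.

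Of 43 listed genes for plastid RNA processing, editing and splicing, 13 were measured and none passed (1 at an unadjusted p under 0.05), with a median of 0.04. The largest changes there were 0.31 for OTP84 and −0.16 for OTP86, both RNA editing factors of the pentatricopeptide repeat family, and 0.28 for AT5G04810. Of 28 listed partners of clpP, accD, ccsA, ycf1, ycf3 and ycf4, 8 were measured and none passed (1 at an unadjusted p under 0.05), with AT1G49380 at 0.38, AT1G22700 at 0.32 and AT1G09130 at 0.26. CLPP4, a nuclear-encoded subunit of the same Clp protease as clpP, was at −0.25 (SE 0.12). A single gene of the 21 listed for plastid RNA polymerases and their partners was measured, AT5G15700, at 0.00 (SE 0.14).

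The tissue label was checked against 4 measured genes of mature seeds. PAP85, a vicilin-like storage protein gene, averaged 14.24 ± 0.03 in hda9-1 and 14.21 ± 0.06 in Col (SD, n = 3 each), and AT2G28490 averaged 13.78 in hda9-1 and 13.71 in Col, near the top of the scale, which ends at 14.94. Of these 4, AT4G36700 fell (−0.80, adjusted p = 0.0297 in limma), and OLEO3, an oleosin gene, was at −0.61 (adjusted p = 0.0805, or 0.0291 with the replicate block). ADPG1, a polygalacturonase gene of the silique wall, read 12.32 ± 0.15 in hda9-1 and 12.83 ± 0.02 in Col and fell by 0.51 (adjusted p = 0.0399), while ALC, the other measured silique wall gene, was at 0.39. The 3 measured seed coat genes, BAN, ARA12 and DELTA-VPE, had changes of 0.10, 0.31 and 1.45, of which DELTA-VPE rose (adjusted p = 0.0496), and the endosperm gene AGL62 was at 0.05. These 3 calls each held in 1 of the 6 fits with an array left out, the one without Col replicate 3 for AT4G36700 and DELTA-VPE and the one without hda9-1 replicate 1 for ADPG1, and that of DELTA-VPE was lost after cyclic loess (0.0524). The part of these tissues in the values of the 26 genes was not tested. No probe set was listed for HDA9 alone, so its transcript was not analysed here.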

How the data were processed

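The deposited table holds log2 values, 1 column per array, and RMA, affy and limma are named without versions per the submitters' processing notes. RMA equalises the distributions of the arrays, so a shift of most transcripts would not be seen. The genome build of the probes is not given in the sources used here, and the gene table of assembly TAIR10.1 served for names and gene order only. Of 22810 probe sets, 64 controls were left out and 22746 tested, with no filter on dim ones, and all 26 genes were brighter than the median probe set. Of those tested, 13513 were listed with 1 gene, and the brightest probe set stood for a gene.

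All 6 arrays entered 1 limma fit (limma 3.58.1, R 4.3.3) with genotype as its term, and Benjamini-Hochberg adjustment ran over all 22746 probe sets. Arrays hold no read counts, so their number limits the precision. The fit was run on data simulated with independent noise in each probe set, and calls were required only at the largest simulated shift. The 26 genes moved together between arrays, so that run does not check changes like theirs. Over all probe sets, same-numbered arrays deviated together (r = 0.34, 0.21 and 0.21, against a limit of 0.1). The labels state no pairs. The main fit was unpaired, and a block for the replicate number, chosen on these data alone, is given where it changes a call. The means of the 26 genes went otherwise, as replicate 2 was the highest hda9-1 array (8.69) and the lowest Col array (7.75). Genes with values in every array were those called in either fit, the 4 highest and 4 lowest changes and the 2 largest per role. The 26 genes, the lists and the rules were chosen with earlier results of these data known. The lists named plastid polymerase partners, plastid ribosomal proteins, RNA processing, partners of other plastid proteins, mature seed, silique wall, seed coat and endosperm. Alternatives were the block, trend and robust eBayes, median centring, cyclic loess, a filter on dim probe sets, gene means over probe sets, array weights, added probe sets of several genes, each array left out and, chosen after seeing the data, centring on the photosynthesis genes.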

Additional observations from a re-analysis of the deposited data

How the results depend on the processing

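Apart from the centring on the photosynthesis genes, the log2 changes of the 26 genes kept their sign except with array weights or with 1 array left out. With array weights the changes of rpoC2, rps4 and rpl20 were 0.031, 0.11 and 0.045, positive in place of negative, and the median of the 26 genes was 0.26, against 0.17. rpl32 was the 1 gene called higher with the replicate block and the 1 called higher with array weights (log2 change 0.77, adjusted p = 0.0437), and over its other alternatives the adjusted p stayed above 0.05. All probe sets called numbered 1453 with the replicate block and 1496 with array weights, against 870, and 92 to 834 with 1 array left out. AT2G43030, the 1 called nuclear partner, was not called with trend and robust eBayes (0 calls), and the count was 0 to 1 with an array left out. With 1 array left out the median of the 26 genes ran from −0.029 to 0.51 and the positive changes from 11 to 26. Centred on the photosynthesis genes the median was −0.14 with 6 positive, by construction, since those genes had the larger changes. The genes that changed sign with an array left out ran from −0.16 to 0.67 for rps2, −0.32 to 0.21 for rpoC2, −0.15 to 0.68 for rpoC1, −0.054 to 0.64 for rps14, −0.32 to 0.38 for rps4, −0.11 to 0.45 for accD, −0.00077 to 0.45 for cemA, −0.39 to 0.37 for rpl20, −0.093 to 0.39 for rpoA, −0.11 to 0.45 for rpl36, −0.21 to 0.43 for rpl14, −0.0043 to 0.30 for rps3, −0.17 to 0.44 for rpl22, −0.24 to 0.51 for rps19 and −0.34 to 0.52 for rps15. The cause of these differences was not tested. The block changed no other call among the genes named in the report than those of rpl32 and OLEO3.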
